A study of Mus musculus with 12 samples.

Results

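Conjugating enzymes attach glutathione, glucuronic acid or sulfate to drugs, hormones and waste products, and 62 of the 38087 gene rows of a liver count table carried the name of such an enzyme. They were taken by symbol alone. There were 24 rows of glutathione S-transferases (GST), 20 of UDP-glucuronosyltransferases (UGT, families 1 to 3) and 18 of cytosolic sulfotransferases (SULT). The GST rows were of the alpha, kappa, mu, omega, pi, theta and zeta classes and the membrane-bound Mgst. Glutathione transferases couple electrophiles to glutathione for export, glucuronosyltransferases of the endoplasmic reticulum make lipophilic molecules such as bilirubin and steroids soluble for bile and urine, and sulfotransferases use the activated sulfate PAPS on phenols, catechols, steroids and bile acids. The liver is the main site of all 3 reactions, and in rodents several of these genes are expressed at different levels in males and females. The livers came from C57BL/6j male mice that were germ-free, which is to say raised without any microbes, aged 13 to 16 weeks and labelled zeitgeber time 2, which counts hours from lights on. The ghrelin group (n = 6) had been given rat ghrelin, a stomach peptide that stimulates feeding and growth hormone release, under the skin at 10 µg per mouse each day for 5 days. The PBS group (n = 6) had been given phosphate-buffered saline on the same schedule. Both groups were germ-free, and neither holds animals with a microbiota, females or another dose. The comparison asks how hepatic conjugation transcripts differ after repeated ghrelin.

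Library totals were 15775059 to 21457627 counts in the ghrelin group and 18746597 to 22302533 in the PBS group. Hepatocyte markers dominated, with a summed level of 71558 to 87515 CPM (counts scaled to the size of the library with TMM factors) in the ghrelin group and 75600 to 107500 CPM in the PBS group over 5 of 5 genes. Kupffer cell markers summed to 150.3 to 216 and 117 to 219 CPM (4 of 5 with a row), stellate cell and fibroblast markers to 318 to 383 and 345 to 393 CPM, cholangiocyte markers to 24.9 to 32.1 and 20.1 to 32.4 CPM, and endothelial markers to 314 to 339 and 305 to 345 CPM in ghrelin and PBS livers. Pancreatic acinar markers had 3 counts in all, with 3 of 5 at 0. Neutrophil markers summed to 0.816 to 4.396 CPM in the ghrelin group and 3.76 to 9.33 CPM in the PBS group, and 1 of the 5 was at 0. Of the 3 tested by edgeR, 2 had an unadjusted p under 0.05. So did 2 of 5 stellate cell and fibroblast markers and 1 of 5 hepatocyte markers, and no tested Kupffer cell, cholangiocyte or endothelial marker. Of the markers of any cell type 0 passed the adjusted threshold, and their part in the values that follow was not tested. The major urinary proteins (Mup), abundant male-biased liver transcripts, summed to 13371 to 16533 CPM in the ghrelin livers; the livers numbered PBS 5 and PBS 6 reached 13850 and 15833 CPM, whereas the other PBS livers had 9828 to 11288 CPM. Values without those libraries are given with the members they touch.

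Of the 62 rows, 47 held enough counts to be tested: 21 GST, 19 UGT and 7 SULT rows. Of the 47, 0 were higher and 0 lower at an adjusted p under 0.05 by edgeR's quasi-likelihood test with Benjamini-Hochberg adjustment over all genes, against 15 of 14170 genes (0.106%), 0.0423% higher and 0.0635% lower. At an unadjusted p under 0.05 there were 14 members, 5 higher and 9 lower in the ghrelin group, or 29.8% of those tested against 13.4% of all genes (6.44% higher and 6.94% lower). That count includes the Ugt1a locus, whose rows share exons and move together and made up 5 of the 9 lower members; without its rows 9 of 38 members remained, 5 higher and 4 lower, or 23.7%. With upper quartile scaling the split over all members was 5 higher and 4 lower, and with 1 library left out it was 5 higher and 3 to 20 lower. It was 5 higher and 13 lower with DESeq2, where 1865 of 14170 genes had such a p. With the replicate number as a block it was 5 higher and 16 lower, where 2097 of 14170 genes did. DESeq2 called 2 members higher (Gstp1 and Gstp2) and 2 lower (Gstt3 and Sult1d1), in a background of 1.44% of genes. With no filter on low counts edgeR called Gstp2 and Gstt3 (0.23% of genes), and with the replicate number as a block it called Gstt3 (0.409% of genes). For no member were the 6 ghrelin values fully apart from the 6 PBS values, as they were for 0.826% of genes. The estimated log2 fold change, ghrelin over PBS, was positive for 12 and negative for 35 of the 47, with a median of -0.13 (-0.07 without the Ugt1a rows) beside 3.19e-05 over all genes. For 32 of the 47 the 95% confidence interval of the log2 fold change lay within 0.5 of 0 on either side, or 68.1% against 68.8% of all genes (23 of 38, or 60.5%, without the Ugt1a rows), so for the other members the data leave room for differences larger than that. Bulk tissue cannot tell fewer cells of a type from less RNA per cell. No label says that each library is a separate animal, so the p-values speak only of the spread among these 12 samples.

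**Figure D1:**
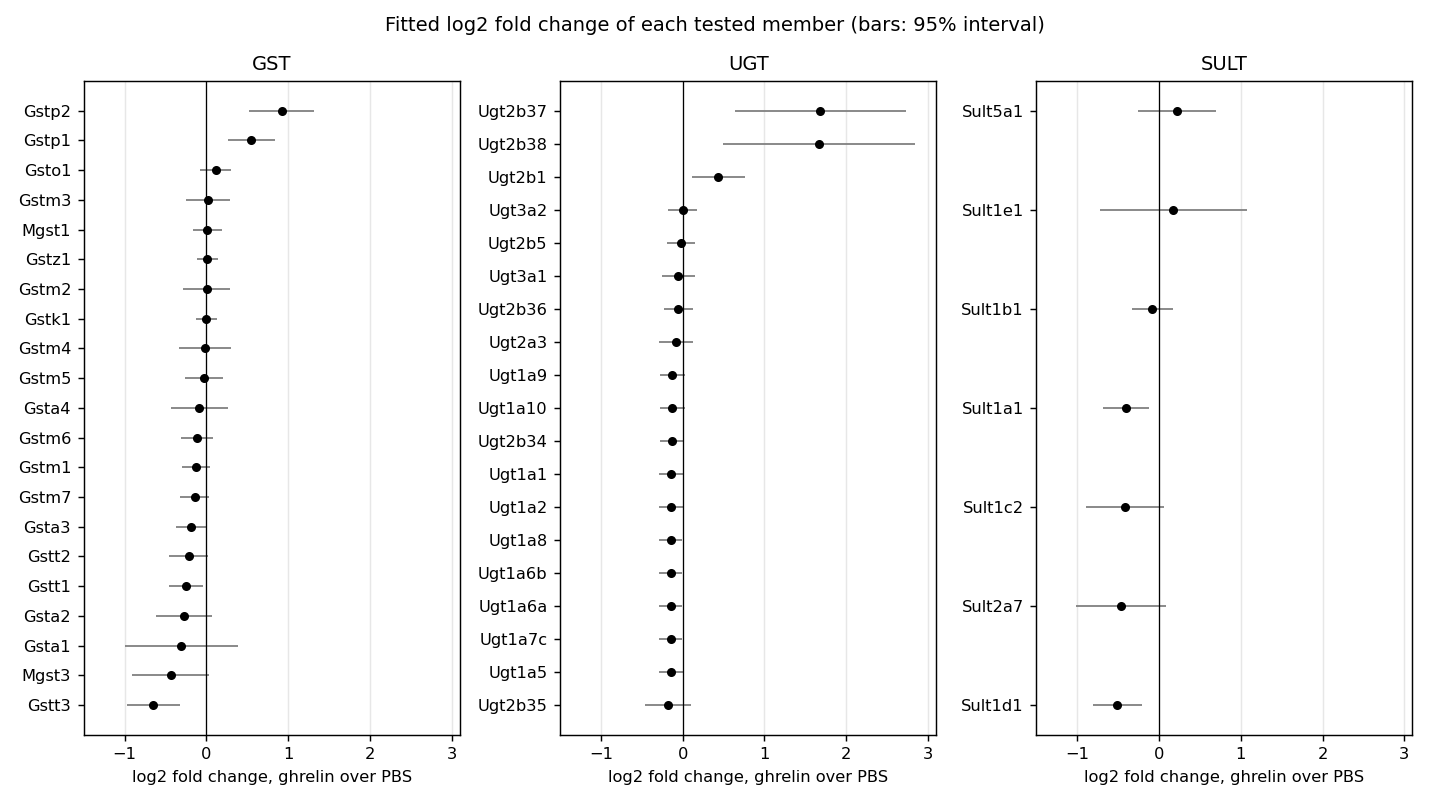
Log2 fold change of ghrelin over PBS for each tested member, grouped by enzyme class, with the 95% confidence interval from edgeR. The longest intervals belong to weakly expressed genes such as Ugt2b38 and Sult1e1, and the Ugt1a rows, which share reads, form a block of near-identical values.

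Summed over their rows, GST transcripts took 6397 CPM in the lowest, 6707 in the median and 7261 in the highest ghrelin liver, against 6038, 6716 and 7356 CPM in PBS livers. The GST medians were nearly the same, while estimates of single members lay on both sides of 0. The UGT total counted the Ugt1a locus once, by its Ugt1a9 row, the one with the most counts. It was 4160, 4633 and 4878 CPM (lowest, median, highest) in ghrelin livers and 4034, 4399 and 5405 CPM in PBS livers. The SULT total had a median of 501 CPM in ghrelin livers, with a range of 409.7 to 677. In PBS livers its median was 713 CPM, with a range of 503 to 759. This total covers only the rows taken by name. It leaves out 2810007J24Rik, named Sult2a8 in GENCODE M21, which alone had medians of 857 and 847 CPM in ghrelin and PBS livers. In the SULT total, ghrelin 4 had 677 CPM and the other ghrelin livers at most 508 CPM, while PBS 5, at 503 CPM, was the only PBS liver in the range of those others. All members together held 1.09 to 1.34% of the counts of a library.

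Each class was carried by a few genes. Mgst1 made up 35.9% of GST counts, followed by Gsta3, Gstp1 (12.7%), Gstm1 (12.3%) and Gstz1 (9.6%). Per length of exon, the mean level over the 12 livers was 1202 CPM per kb for Mgst1, 567 for Gstm1, 564 for Gstp1 and 310.5 for Gsta3. The UGT class was more even, with 22.9% of its counts on the Ugt1a9 row, 18.2% on Ugt2b5, 17.9% on Ugt2b1 and 13.2% on Ugt2b36. The Ugt1a9 row stands for the Ugt1a locus here, and reads of the locus outside that row are not in its share. Among the SULT rows taken by name, Sult1a1 and Sult1d1 held 60.8% and 31.1% of counts, and the third, Sult1b1, 5.28%. The Sult2a8 row, 2810007J24Rik, is not in these shares and had 204270 counts beside 85935 for Sult1a1. The 15 untested rows had 0 to 33 counts over all libraries, and 11 of them were SULT rows, including Sult2a1 (2 counts), a hydroxysteroid sulfotransferase, and Sult3a1 (11 counts). Sult1c1, Sult2a5 and Sult2a6 had no count, which allows up to 3 counts over all libraries.

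**Figure D2:**
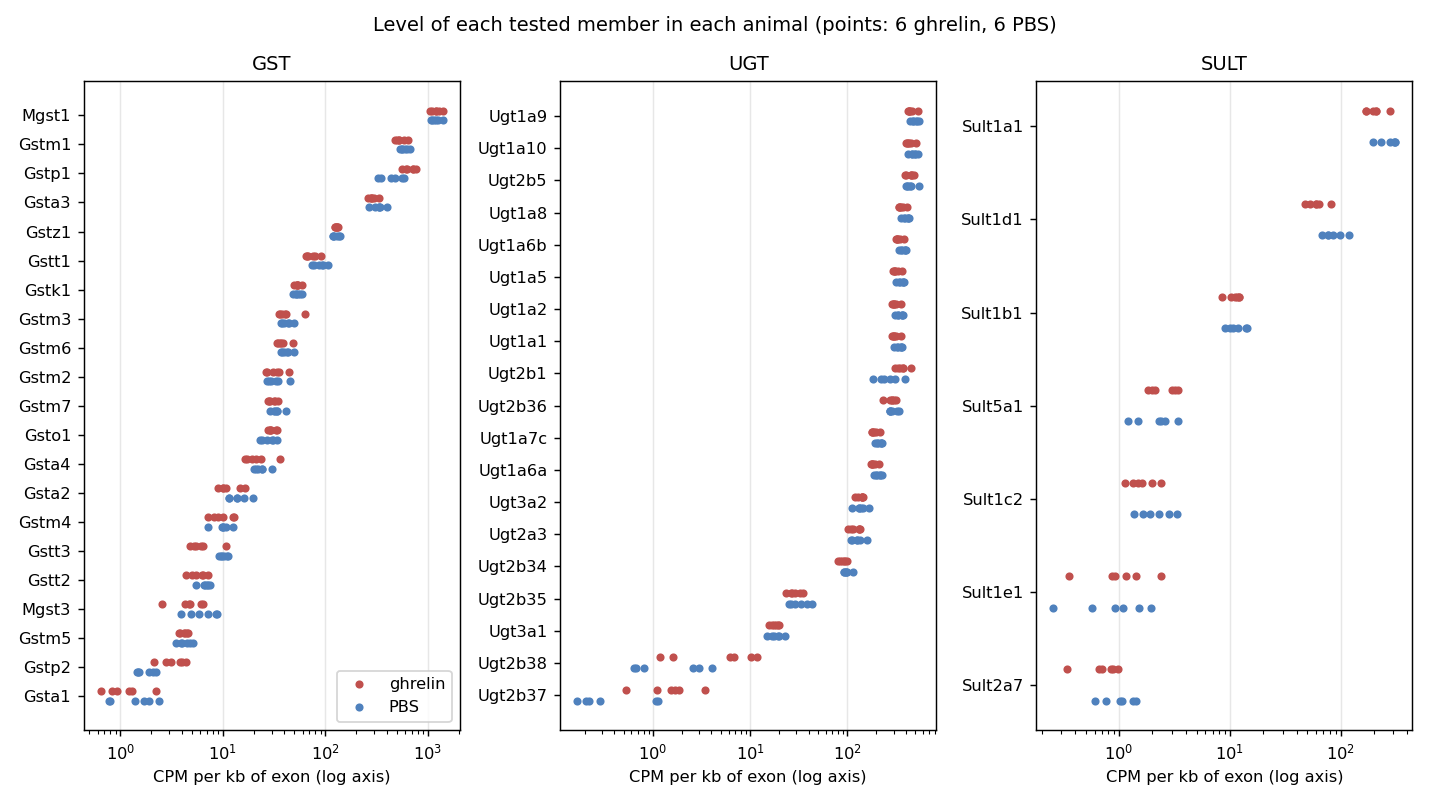
Level of each tested member in each of the 6 ghrelin (red) and 6 PBS (blue) livers, in CPM per kb of exon on a log axis, by enzyme class. Mgst1 is the highest GST, with a mean of 1202 CPM per kb over all livers, and the Ugt1a rows share reads, so their order is not a ranking.

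The pi-class transferases Gstp1 and Gstp2, which in mouse liver are more abundant in males than in females, were the GST genes with the highest estimated ratio of ghrelin to PBS. They lie side by side on the minus strand of chromosome 19 (GRCm38, chr19:4035407-4037985 for Gstp1 and chr19:4040285-4046023 for Gstp2). The 250 bases before the RefSeq start of each gene, from GRCm38.p6 on the minus strand, are shown because both hold the letters TGAGTCAGCA, in capitals, a match on the other strand to the motif TGCTGA, any base, TCA, of the NF-E2 and antioxidant element type. The Gstp1 window is chr19:4037913-4038162 and the Gstp2 window chr19:4042222-4042471. RefSeq starts differ from the outer ends of the gene spans above, which are those of GENCODE M21: 73 of the 250 bases of the Gstp1 window and all 250 of the Gstp2 window lie inside those spans.
Gstp1: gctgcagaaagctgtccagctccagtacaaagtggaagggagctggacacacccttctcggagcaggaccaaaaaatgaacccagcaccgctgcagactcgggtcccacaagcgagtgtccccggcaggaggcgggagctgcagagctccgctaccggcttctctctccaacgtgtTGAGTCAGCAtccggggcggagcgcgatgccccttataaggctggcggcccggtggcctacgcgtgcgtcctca
Gstp2: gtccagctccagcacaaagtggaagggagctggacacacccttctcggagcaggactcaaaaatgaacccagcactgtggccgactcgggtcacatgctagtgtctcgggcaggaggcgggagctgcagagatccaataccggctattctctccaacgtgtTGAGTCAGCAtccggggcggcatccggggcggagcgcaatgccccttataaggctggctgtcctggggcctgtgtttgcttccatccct
The match begins 74 bases before the RefSeq start of Gstp1 and 89 before that of Gstp2, and the windows are identical at 208 of 235 aligned bases (88.5%). Searched on both strands, this motif occurred in the windows of 2 of the 42 tested members that have one, namely this pair, and in any window of 0.407% of 27025 genes. A STAT-type motif, TTCNNNGAA, occurred in 3 of the 42 (Gsta1, Gstm6 and Ugt1a6a, 7.14%) and in 8.13% of genes, and an HNF1-type motif, GTTAAT, any base, ATTAAC, in none of the 42 and in 0.0111% of genes. A match is a description of these letters and not a test of binding.

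Gstp1 had 874, 1042 and 1194 CPM in the lowest, median and highest ghrelin liver, against 511, 712 and 909.8 CPM in PBS livers. The groups overlapped through ghrelin 4, which lay in the PBS range, and PBS 5, which lay in the ghrelin range. The mean was 1037 ± 120.4 CPM in ghrelin livers and 709 ± 166 CPM in PBS livers (SD, n = 6 each), a log2 fold change of 0.55 ± 0.14 (SE) with an adjusted p of 0.138 by edgeR. Gstp2 had far fewer counts, with 2.35, 3.89 and 4.85 CPM in ghrelin livers and 1.62, 1.92 and 2.46 CPM in PBS livers. Apart from ghrelin 4, every ghrelin liver was above every PBS liver for Gstp2. Its log2 fold change was 0.92 ± 0.18 (SE), with an adjusted p of 0.0841 by edgeR, the smallest of all members. Gstp1 and Gstp2 are near-identical in part. Of the 125-base stretches of Gstp2 transcripts, 41.8% also occur in another gene, 38.1% in Gstp1, so reads can be split between them. Gstp2 counts were 0.269 to 0.446% of Gstp1 counts in ghrelin livers and 0.188 to 0.451% in PBS livers, and what share of the Gstp2 counts came from Gstp1 reads was not tested.

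The theta class, which acts on small halogenated and other electrophiles, had estimates in the other direction. Gstt3 (chr10:75774115-75781414, minus strand) had 18.2, 22.4 and 40.9 CPM in the lowest, median and highest ghrelin liver and 34.9, 38.7 and 43.1 CPM in PBS livers. Of the ghrelin livers, 5 lay below all PBS livers and only ghrelin 4, with 40.9 CPM, lay among them. The log2 fold change was -0.65 ± 0.16 (SE), with an adjusted p of 0.127 by edgeR. Gstt1 had 99.3, 109.7 and 139 CPM in ghrelin livers and 113, 137 and 161 CPM in PBS livers, overlapping in both directions, with a log2 fold change estimated at -0.25 ± 0.10 (SE) and an adjusted p of 0.29 by edgeR. For both genes ghrelin 4 was the highest of its group. A further row on the same strand, Gm20441 (chr10:75771451-75780954), overlaps Gstt3 and shares 10.2% of its exon positions in such stretches. It had 36627 counts beside 7695 for Gstt3, so the Gstt3 count depends on how reads of overlapping genes were handled. Gstt2, the remaining tested theta gene, had 18.1 to 30.1 CPM in ghrelin livers and 22.6 to 30.9 CPM in PBS livers.

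Other abundant transferases had estimates nearer to 0 than Gstp1. Mgst1, which protects membranes of the endoplasmic reticulum and mitochondria from oxidised lipids, had 2115, 2430 and 2808 CPM in ghrelin livers and 2142, 2368 and 2820 CPM in PBS livers. Its ranges nearly coincided, and the log2 fold change of 0.01 had a 95% interval of -0.16 to 0.19. The alpha-class Gsta3 had a median of 1228 CPM in ghrelin livers and 1453 CPM in PBS livers, with a log2 fold change estimated at -0.18 ± 0.09 (SE) and an adjusted p of 0.394 by edgeR. The mu-class Gstm1 had medians of 775 and 857 CPM in ghrelin and PBS livers, with a log2 fold change of -0.13 ± 0.08 (SE). Gstz1, the maleylacetoacetate isomerase of tyrosine breakdown, was the steadiest member within the ghrelin group, with a coefficient of variation of 2.45% there and 7.52% in PBS livers and a log2 fold change of 0.01 ± 0.06 (SE).

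The other alpha genes and Gstm3 follow. Gsta1 and Gsta2 had log2 fold changes of -0.31 ± 0.32 and -0.27 ± 0.16 (SE), at medians of 1.02 and 12.2 CPM in ghrelin livers and 1.47 and 16.1 CPM in PBS livers, and 75.4% of the exon positions of Gsta1 lie in stretches shared with other genes. Gsta4, which conjugates the lipid peroxidation product 4-hydroxynonenal, had 21.1 to 45.6 CPM in ghrelin livers and 25.6 to 37.9 CPM in PBS livers. Gstm3 had 46.6 to 83.3 CPM in ghrelin livers and 48.9 to 64.4 CPM in PBS livers, and its log2 fold change of 0.02 ± 0.13 (SE) took the other sign in some alternative fits. The adjusted p of these 4 genes was 0.483 to 0.974 by edgeR. The kappa, omega and other mu genes had an adjusted p of 0.461 or more by edgeR, and Mgst3, a membrane-bound relative of Mgst1, one of 0.408.

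**Figure D3:**
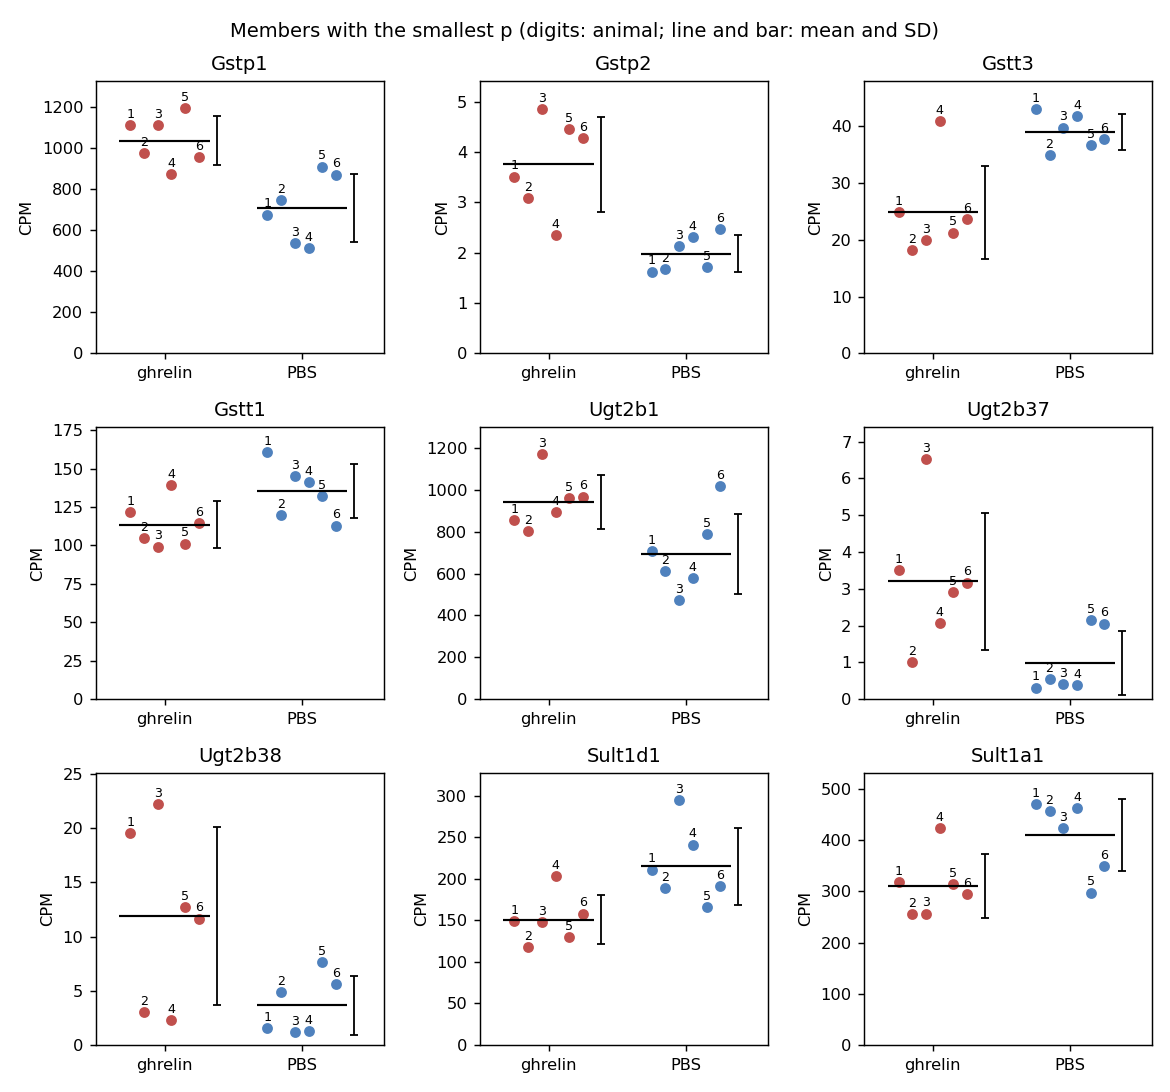
CPM in each of the 6 ghrelin and 6 PBS livers, for 9 members with a small p, with digits for the replicate number and a line and bar for the mean and SD of each group. For Gstt3 only ghrelin 4 lies among the PBS livers, and for Ugt2b37 and Ugt2b1 the livers PBS 5 and PBS 6 lie nearest to the ghrelin livers.

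The Ugt1a locus of chromosome 1 makes its enzymes, among them the bilirubin transferase Ugt1a1 and the phenol transferase Ugt1a6a, from separate first exons spliced to common last exons. The 9 Ugt1a rows shared 1311 exon bases in GENCODE M21, or 30.4 to 59.9% of the exons of each. Their counts stepped down in genome order, 246680 and 247264 for Ugt1a10 and Ugt1a9, 202340 to 202920 for Ugt1a8, Ugt1a7c, Ugt1a6b and Ugt1a6a, then 177098, 172574 and 171768 for Ugt1a5, Ugt1a2 and Ugt1a1. The ratio of each row to Ugt1a1 was nearly the same in every library (1.406 to 1.475 for Ugt1a9), so the rows are treated as 1 measurement and not as 9 genes. Ugt1a9 had 923, 965 and 1160.0 CPM in ghrelin livers and 965, 1086 and 1201 CPM in PBS livers, and Ugt1a1 had 637, 669 and 786 CPM in ghrelin livers and 676, 768 and 815 CPM in PBS livers. The groups overlapped for both rows. The log2 fold changes were -0.13 ± 0.07 (SE) for Ugt1a9 and -0.14 ± 0.07 (SE) for Ugt1a1, with adjusted p of 0.465 and 0.379 by edgeR.

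The steps between successive rows give what one row holds beyond the next. Ugt1a9 minus Ugt1a8 was 165, 175 and 237 CPM (lowest, median, highest) in ghrelin livers and 159.8, 187 and 231 CPM in PBS livers. Ugt1a6a minus Ugt1a5 was 95.1, 106 and 108 CPM in ghrelin livers and 106, 111 and 126 CPM in PBS livers. Ugt1a5 minus Ugt1a2 was 11.5, 14.7 and 25.4 CPM in ghrelin livers and 17.9, 21.5 and 25.9 CPM in PBS livers. All of these differences overlapped between the groups. They are differences of counts between rows, and the assignment of reads in the common exons is not given in the sources used here, and none is the level of a single enzyme.

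**Figure D4:**
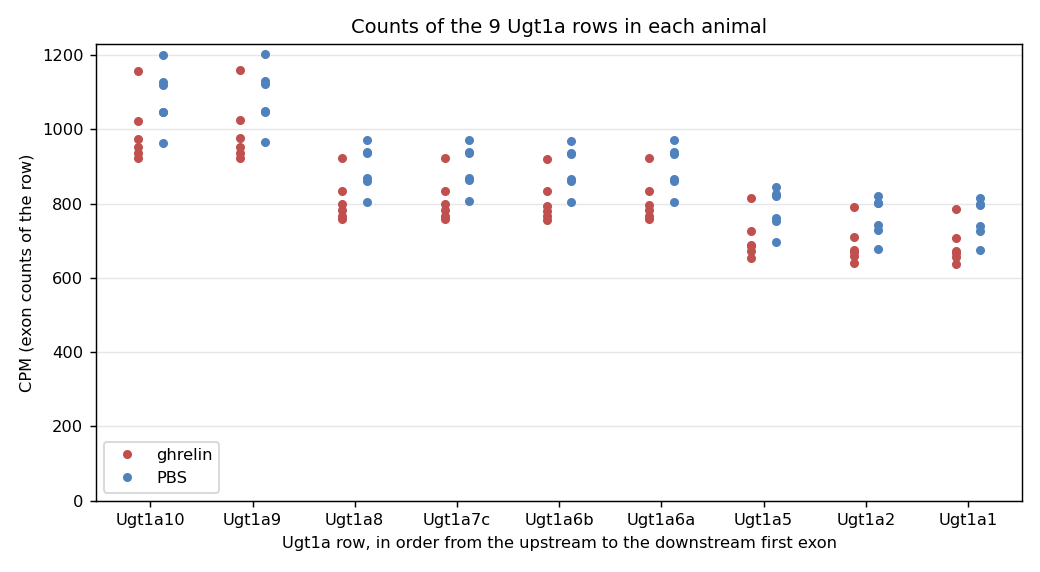
CPM of the 9 Ugt1a rows in genome order in each of the 6 ghrelin (red) and 6 PBS (blue) livers. Both groups show the same steps, from Ugt1a10 and Ugt1a9 down to Ugt1a1, and their points overlap at every row.

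The Ugt2b genes of chromosome 5, transferases for steroids, bile acids and drugs, held the 3 UGT members with positive estimates at an unadjusted p under 0.05. Ugt2b1 (chr5:86916638-86926530) had 802, 928 and 1171 CPM in ghrelin livers and 475, 658 and 1018 CPM in PBS livers. All ghrelin livers lay above PBS 1 to PBS 5, of which PBS 5 was the highest at 789 CPM, whereas PBS 6, at 1018 CPM, exceeded 5 of the 6 ghrelin livers. The log2 fold change was 0.44 ± 0.15 (SE), with an adjusted p of 0.248 by edgeR. Ugt2b37 (chr5:87240493-87254804) had 1.005, 3.04 and 6.53 CPM in ghrelin livers and 0.314, 0.480 and 2.15 CPM in PBS livers. The PBS livers lay apart as PBS 5 and PBS 6, at 2.15 and 2.05 CPM, and the other 4, at 0.314 to 0.544 CPM, below every ghrelin liver. The log2 fold change was 1.68 ± 0.49 (SE), with an adjusted p of 0.19 by edgeR.

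Ugt2b38 (chr5:87409942-87424203) had 2.26, 12.2 and 22.2 CPM in ghrelin livers and 1.201, 3.18 and 7.62 CPM in PBS livers. Ghrelin 2 and ghrelin 4, at 3.01 and 2.26 CPM, were within the PBS range, and the other ghrelin livers were above all PBS livers. The log2 fold change was 1.67 ± 0.55 (SE), with an adjusted p of 0.229 by edgeR. Ghrelin 2 and ghrelin 4 were also the ghrelin livers with the highest level of Cish, a feedback inhibitor that growth hormone signalling induces. They had 13.1 and 16.2 CPM of Cish, against 0.990 to 4.56 CPM in the other ghrelin livers. PBS livers had 2.41 to 27.1 CPM of Cish and did not all show this pairing. PBS 1, the lowest of them in Cish, had 1.52 CPM of Ugt2b38, and PBS 2, with 20.3 CPM of Cish, had 4.85 CPM. PBS 3 and PBS 4 had more Cish and less Ugt2b38 than PBS 5 and PBS 6. The part of Cish in the Ugt2b38 values was not tested. Of the 125-base stretches of Ugt2b38 transcripts, 21.7% also occur in Ugt2b5, which has far more counts, whereas Ugt2b37 shares none. The 250 bases before the RefSeq starts of Ugt2b37 (chr5:87254789-87255038) and Ugt2b38 (chr5:87424204-87424453), minus strand of GRCm38.p6, the first of which overlaps the GENCODE gene by 16 bases, are shown because these genes had the widest UGT estimates, with no capitals since none of the 3 motifs occurred.
Ugt2b37: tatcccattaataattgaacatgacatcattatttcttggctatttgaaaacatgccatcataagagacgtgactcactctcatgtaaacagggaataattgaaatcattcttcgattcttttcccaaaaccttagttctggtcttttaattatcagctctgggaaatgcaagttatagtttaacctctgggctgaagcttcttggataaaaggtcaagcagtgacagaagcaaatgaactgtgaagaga
Ugt2b38: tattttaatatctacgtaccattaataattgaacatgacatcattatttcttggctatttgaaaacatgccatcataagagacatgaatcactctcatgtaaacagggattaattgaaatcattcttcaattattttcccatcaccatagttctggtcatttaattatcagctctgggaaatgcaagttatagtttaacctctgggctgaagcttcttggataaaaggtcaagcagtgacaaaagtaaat
They are identical at 224 of 236 aligned bases (94.9%).

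The strongest Ugt2b gene per length, Ugt2b5, had 727, 847 and 904 CPM in ghrelin livers and 755, 805 and 1008 CPM in PBS livers. Its ranges overlapped widely, and the log2 fold change was -0.02 ± 0.08 (SE), with an adjusted p of 0.953 by edgeR. Ugt2b34, Ugt2b35, Ugt2b36 and Ugt2a3 had median levels of 389, 94.1, 595 and 260.1 CPM in ghrelin livers and 418, 105.0, 584 and 267 CPM in PBS livers, with adjusted p of 0.406 to 0.818 by edgeR. The Ugt3a enzymes, which in humans use sugars other than glucuronic acid, had medians of 47.8 and 439 CPM in ghrelin livers and 49.1 and 418 CPM in PBS livers for Ugt3a1 and Ugt3a2. Within groups, the median coefficient of variation of all members without the Ugt1a rows was 14.5% in ghrelin and 15.1% in PBS livers, against 13.0 and 12.6% for all genes. That of GST was 14.5 and 13.9%, that of SULT 26.8 and 31.0% and that of the Ugt1a rows 7.78 and 7.06% in ghrelin and PBS livers.

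Sult1a1 and Sult1d1, which held most counts among the rows taken by name, had lower estimates in the ghrelin group. Sult1d1, which in mice sulfonates dopamine and other catechols (chr5:87554645-87569027), had 118, 148 and 203 CPM in ghrelin livers and 166, 201 and 295 CPM in PBS livers. Only ghrelin 4 lay within the PBS range, while PBS 2, PBS 5 and PBS 6 were below ghrelin 4. The log2 fold change was -0.51 ± 0.14 (SE), with an adjusted p of 0.172 by edgeR. Sult1a1, the main phenol sulfotransferase (chr7:126672865-126676432), had 255, 305 and 424 CPM in ghrelin livers and 297, 440.0 and 471 CPM in PBS livers. Again ghrelin 4 was the highest of its group, and PBS 5 and PBS 6, at 297 and 349.9 CPM, were the lowest of theirs. The log2 fold change was -0.40 ± 0.13 (SE), with an adjusted p of 0.231 by edgeR. For neither gene do more than 0.2% of the 125-base stretches occur in another gene.

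Of the other tested sulfotransferases, Sult1b1 alone had a 95% interval within 0.5 of 0 on the log2 scale. Sult1b1, which acts on thyroid hormones, had 23.7, 31.6 and 33.9 CPM in ghrelin livers and 25.1, 31.4 and 39.8 CPM in PBS livers, a log2 fold change of -0.08 ± 0.12 (SE). Sult1c2 had 2.11 to 4.37 CPM in ghrelin livers and 2.54 to 6.13 CPM in PBS livers, and Sult2a7 had 0.433 to 1.25 and 0.770 to 1.83 CPM in ghrelin and PBS livers. Their log2 fold changes were -0.42 ± 0.22 and -0.47 ± 0.26 (SE), with adjusted p of 0.438 and 0.453 by edgeR. Sult1e1, the estrogen sulfotransferase, had 0.440 to 2.97 CPM in ghrelin livers and 0.317 to 2.42 CPM in PBS livers, and its log2 fold change of 0.17 ± 0.42 (SE) was uncertain in sign. Sult5a1 had 8.04 to 15.04 CPM in ghrelin livers and 5.36 to 14.9 CPM in PBS livers. The row 2810007J24Rik, which GENCODE M21 names Sult2a8, a bile acid sulfotransferase, lies outside the naming rule; it had a mean of 851 ± 117 CPM in ghrelin livers and 861 ± 142 CPM in PBS livers (SD, n = 6 each), and a log2 fold change of -0.02 ± 0.11 (SE).

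No member was called in the main edgeR fit over all 12 livers. Which members passed in other fits turned on the test, the filter and the replicate block, as given above, and on a few libraries. Without ghrelin 4, edgeR called Gstt3, with a log2 fold change of -0.85 ± 0.09 (SE) and an adjusted p of 0.00126, and Gstp2, with 1.03 ± 0.17 (SE) and 0.0195, in a background of 0.224% of genes. Without PBS 5 and PBS 6 it called Gstp1 (log2 fold change 0.75, adjusted p 0.0131), Ugt2b1 (0.67, 0.0212), Ugt2b37 (2.93, 0.0131) and Sult1a1 (-0.55, 0.0497), in a background of 1.02% of genes. In that fit the log2 fold change was 2.4 for Ugt2b38 and -0.63 for Sult1d1, with adjusted p of 0.0889 and 0.0532. The livers PBS 5 and PBS 6 lay on the ghrelin side of the other PBS livers in Gstp1, Ugt2b1, Ugt2b37, Ugt2b38 and Sult1a1. They were set apart by a Mup level within the ghrelin range, so leaving them out widens the difference in such genes. No label gives a reason to leave out any library, so the values over all 12 livers stand.

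The genes that supply and surround these enzymes were counted as well: of 47 listed, 44 were tested, none passed the adjusted threshold, and 7 were higher (15.9%) and 6 lower (13.6%) at an unadjusted p under 0.05, against 6.44% and 6.94% of all genes, with a median log2 fold change of -0.00397. Inmt, an indolethylamine N-methyltransferase, had 257, 281 and 352 CPM in ghrelin livers and 302, 397 and 413 CPM in PBS livers, a log2 fold change of -0.36 ± 0.09 (SE) with an adjusted p of 0.147 by edgeR. Its values overlapped between the groups. Across the alternative fits by edgeR or DESeq2 its adjusted p was 0.0249 to 0.292, with the lowest under the threshold of 0.05. Of the 5 genes listed under UDP-glucuronate supply, not all of which make or carry it, Ugdh, which makes UDP-glucuronic acid, had an estimated log2 fold change of -0.20 ± 0.08 (SE) and Slc35b1 one of 0.32 ± 0.12 (SE). Of the 7 of sulfate supply, the PAPS synthase Papss1 had 0.40 ± 0.15 (SE) and the phosphatase Impad1 -0.18 ± 0.08 (SE) on the same log2 scale. Of the 7 tested genes of glutathione supply, Ggct and Oplah, which act in the glutathione cycle, had 0.31 ± 0.12 and 0.14 ± 0.11 (SE). With 1 library left out, Papss1 ranged over 0.26 to 0.48 and Oplah over 0.06 to 0.20. Of 10 transcription factors of conjugation genes, the aryl hydrocarbon receptor Ahr had -0.43 ± 0.14 (SE), with 40.8, 54.4 and 68.8 CPM in ghrelin livers and 50.7, 72.8 and 96.2 CPM in PBS livers, and Stat5b, which carries the growth hormone signal, 0.29 ± 0.10 (SE). Among relatives outside the naming rule, Clic4 had -0.17 ± 0.07 (SE) and Eef1g a log2 fold change of 0.09. Apart from Inmt, the adjusted p of the genes named here was 0.235 or more by edgeR.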

How the data were processed

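Total RNA of 12 livers was sequenced in paired reads of 125 bases from ribosomal RNA-depleted, stranded libraries, per the labels' protocols. The authors deposited raw counts per gene that were not normalised. Alignment was with STAR 2.4.0i to mm10, per the submitters' processing notes; the counting tool, annotation, strand setting and handling of reads that fit several genes were not given in the sources used here. Groups and replicate numbers come from the library titles and treatment labels.

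Genes were filtered with filterByExpr (minimum count 10, minimum total 15), scaled by TMM and compared by the two-sided quasi-likelihood F test of edgeR 4.0.16 in R 4.3.3 over all 14170 genes, with Benjamini-Hochberg adjustment and a threshold of 0.05. The biological coefficient of variation was 0.145. The SE is the absolute log2 fold change over the square root of F. DESeq2 1.42.0, other scalings and filters, a replicate block and left-out libraries were alternatives. On counts simulated for this comparison 60% of 50 genes with a simulated log2 fold change of 0.5 were called, and 96% of 50 with one of 1. The changed genes were drawn from those with a mean over 1 CPM, and genes varied independently within a library. With 50 genes changed at each of several sizes, more genes differed than the 15 called in the data, which loosens the adjusted threshold. Recovery in the real livers can therefore be lower.

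Positions and exon lengths come from GENCODE M21 (GRCm38), which holds 95.33% of the rows by identifier, and promoter windows from RefSeq, found for 54 of the 62 members. Shared stretches are the distinct 125-base words of a gene's transcripts that a transcript of another gene also holds, as a share of all its distinct words. Class sums, shares and levels were described and not tested.

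The members and lists were chosen with earlier results of these data known. Named members were, per class, the 4 with the smallest p and the 4 with the highest level per length, plus preset genes, and, per list, the 2 with the smallest p; members given by ranges, Cish and Gm20441 were named after their values were seen. A gene that the list rule takes in is not reported here. PCR copies are not independent molecules, so limits from a count of 0 cover counting error only.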

Additional observations from a re-analysis of the deposited data

Results flagged for a closer look

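In groups of 6 livers, a value was set apart where its gap to the nearest other, over the range of the group, exceeded Dixon's 95% critical value. This held in 8 of 68 groups examined, and chance alone gives about 1 in 20. Ghrelin 4 accounted for 5 of the 8. It had 40.9 CPM of Gstt3, with the next ghrelin liver at 24.9, 83.3 CPM of Gstm3, with the next at 53.7, and 424 CPM of Sult1a1, with the next at 318. It also had a SULT total of 677 CPM, with the next at 508, and an Ugt1a9 minus Ugt1a8 difference of 237 CPM, with the next at 191. The SULT total is mostly Sult1a1, so these are not separate observations. Ghrelin 1 had 45.6 CPM of Gsta4, with the next ghrelin liver at 29.8. PBS 6 had 1008 CPM of Ugt2b5, with the next PBS liver at 841, and PBS 1 had an Ugt1a6a minus Ugt1a5 difference of 126 CPM, with the next at 112.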

How the results depend on the processing

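Over 27 named members and 13 named list genes under 20 alternatives, 795 log2 fold changes were computed. Of these, 759 kept their sign without passing the threshold, 16 moved past it and 20 changed sign, in 5 genes with estimates near 0. No named gene had passed in the main fit, so none could drop below the threshold. DESeq2 gave no adjusted p for Gsta1, Sult1e1, Sult2a7 and Ugt2b37, and these fits are among the 759. The 15 genes called in all became 63 without a filter on low counts, 204 with DESeq2, 9 with a robust fit, 58 with the replicate block, 148 without PBS 5 and PBS 6, and 0 to 32 with 1 library left out, the 0 without ghrelin 1 or ghrelin 3, where 1675 and 1536 genes had an unadjusted p under 0.05. Members called higher were 1 without a filter, 2 with DESeq2, 3 without PBS 5 and PBS 6, and 0 to 1 with 1 library left out. Members called lower were 1 without a filter, 2 with DESeq2, 1 with the replicate block, 1 without PBS 5 and PBS 6, and 0 to 1 with 1 library left out. Members at an unadjusted p under 0.05 were 9 with upper quartile scaling (5 higher, 4 lower) and 8 to 25 with 1 library left out. They were 18 with DESeq2 and 18 without a filter (5 higher, 13 lower in each), and 21 with the replicate block (5 higher, 16 lower). Sign changes were Gstm3 with the block (-0.0087), without PBS 5 and PBS 6 (-0.0404) and with 1 library left out (-0.133 to 0.0719), Ugt2b5 without PBS 5 and PBS 6 (0.0557) and with 1 left out (-0.0436 to 0.0475), 2810007J24Rik without PBS 5 and PBS 6 (0.10) and with 1 left out (-0.0673 to 0.0616), and, with 1 left out, Mgst1 (-0.0295 to 0.0646) and Sult1e1 (-0.13 to 0.45). The cause was not tested. The labels share numbers 1 to 6 between groups without calling them pairs, so the number was not used as a pairing in the main fit. Same-numbered libraries deviated together with a correlation over 0.1 in 3 of 6 pairs, with a range of -0.081 to 0.272. Of the 6 ghrelin libraries, 3 correlated best with the PBS library of their own number. These values do not settle whether the numbers mark pairs. With the number as a block, Gstt3 passed (log2 fold change -0.70, adjusted p 0.0342 by edgeR). At the depth of these libraries, the 15 untested members gave no comparison.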
